A study of Mus musculus with 20 samples.

Results

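Tumors grown from Y-negative MB49 cells were compared with tumors grown from Y-positive MB49 cells across the genes outside the X and Y chromosomes. The MB49 line comes from a bladder cancer of a male mouse. The Y-negative group is 5 tumor libraries, MN11 to MN15, labelled with the genotype Y NEGATIVE, and the Y-positive group is 5 tumor libraries, MP6 to MP10, labelled Y POSITIVE. All 10 came from subcutaneous tumors in wild-type C57BL/6 male mice, so host cells in both groups carry a Y chromosome. The labels do not say how the Y-negative cells were obtained, whether they are 1 clone, how long the tumors grew, at what time of day they were taken or whether each library is a separate mouse, so p-values speak only of the spread among these libraries, which may be technical. The comparison uses 10 of the 20 libraries of the series, the other 10 being cultured cells of both genotypes. The tumor tables list 28025 genes, of which 27093 lie outside X and Y and were the members here: 27035 on numbered chromosomes, 31 mitochondrial and 27 on unplaced scaffolds. Of these members, 14327 had enough reads to be tested.

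A subcutaneous tumor is a mixture. Besides the cancer cells it holds fibroblasts that lay down collagen, vessels, resident mast cells with granules full of proteases, and immune cells that enter from the blood, among them T and NK cells that kill with granzymes and dendritic cells that carry antigen to lymph nodes. Bladder cancers range from luminal forms, with keratins of the mature urothelium, to basal or squamous forms, with the keratins of stratified epithelium. The read counts are from whole tumors, so fewer cells of a type and less RNA per cell cannot be told apart.

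Library totals ran from 14856008 to 21180885 reads. The 4 Y-linked genes that served as a check of the labels summed to 17.4 to 31.4 CPM (read counts scaled to the library total) in the Y-negative and 138 to 227 CPM in the Y-positive tumors, without overlap. 3 features of the libraries stood apart from the genotype labels. In replicate likeness, MN11, MN13 and MN14 were far more alike than any other libraries except MN12 and MN15: the chi-square of their counts per degree of freedom was 7.99 to 16.2 within the trio and 14.8 between MN12 and MN15, against 101 to 144 between these sets and 22.8 to 116 between Y-positive libraries. Levels in each library also leaned on gene length. The slope of a library's log2 deviation from the gene mean on log2 gene length was between 0.14 and 0.18 for MN11, MN13 and MN14, against -0.10 for MN12 and -0.09 for MN15. It was 0.07 in MP6 and between -0.20 and -0.02 in MP7 to MP10. In tissue makeup, MP9 held the most skeletal muscle and fat RNA: 15 muscle genes summed to 2830 CPM there, against 18.9 to 851 CPM in the other 9 libraries, and 11 adipocyte genes to 362 CPM, against 101 to 212 CPM.

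Of the 14327 genes tested, 348 passed an adjusted p of 0.05 (edgeR quasi-likelihood test with Benjamini-Hochberg adjustment), which is 2.43% of them. These are termed called genes below. The call was higher in Y-negative tumors for 206 genes (1.44%) and lower for 142 (0.991%). At least 1 log2 unit separated the groups for 94 of the genes called higher and 88 of those called lower. The 2 groups of libraries did not overlap for 844 tested genes (5.89%), with Y-negative higher for 400 (2.79%) and lower for 444 (3.1%), and 300 of the 348 called genes were among them. The median log2 difference over all tested genes was -0.01, and 3273 genes had an unadjusted p under 0.05.

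The number of called genes rested on single libraries. All 348 genes kept their direction in each of the 21 alternative fits that tested them, although the strictest filter on low counts tested 341 of them. They were selected for a difference in these same libraries, so the kept direction says little about its stability. The count was 74 with MN11 left out, 78 with MN14, 162 with MN13, 73 with MP8, 142 with MP9, 159 with MP10 and 768 with MN12. Leaving out MN12 and MN15 together gave 3525 called genes, and leaving out MN11, MN13 and MN14 gave 16. Across the alternatives, 57 genes kept the call in every fit but possibly the last one, and 9 of these kept it in all 21.

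**Figure D1:**
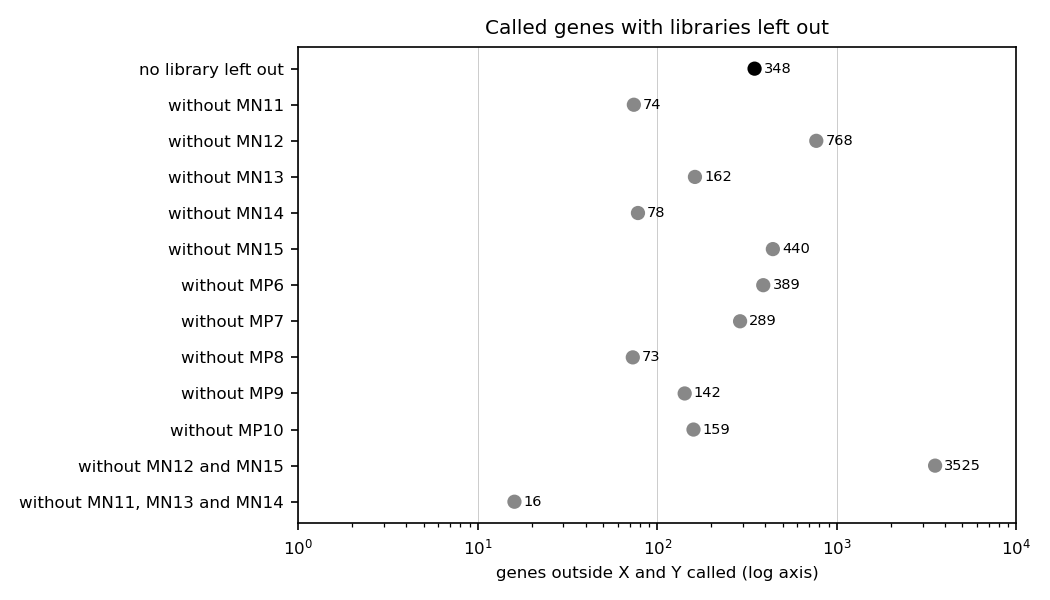
Number of genes outside X and Y called between Y-negative and Y-positive tumors (x axis, logarithmic) with all 10 libraries and with the named libraries left out (y axis). The number ran from 16 without MN11, MN13 and MN14 to 3525 without MN12 and MN15, around 348 with all libraries.

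The 9 genes called in all 21 alternatives were Rgs9, Prph, Anpep and Nov, higher in Y-negative tumors, and Pthlh, Gldc, Krt14, Cpxm1 and Gm8212, lower. Values are given below as normalized CPM, in the order MN11 to MN15 and MP6 to MP10. Levels between genes are not compared on this scale, since CPM is not divided by gene length. The gene lists used below were chosen with earlier results of these data known. Their counts of calls and medians are therefore descriptions and not tests of a list. Over all tested genes 1.44% were called higher and 0.991% lower, with short genes more often lower and long genes more often higher.

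Anpep (ENSMUSG00000039062, chr7:79821803-79861059, mm10), which encodes aminopeptidase N or CD13, a membrane enzyme that trims peptides outside the cell, measured 336, 188, 382, 377 and 220 CPM in the Y-negative tumors. It measured 42.5, 52.2, 33.3, 25.7 and 37.2 CPM in the Y-positive tumors. Every Y-negative library was far above every Y-positive one, although MN12 and MN15 were the lowest of their group. The difference was 2.98 ± 0.25 on the log2 scale (SE, n = 5 and 5, adjusted p = 8.59e-05). Of the 8 tested membrane ectopeptidases, Anpep was the 1 that was called, against 2.43% of all genes, and the median of the 8 was -0.20.

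Rgs9 (chr11:109225355-109298129), a regulator that shortens G protein signals and is best known from photoreceptors and the striatum, was at 8.93, 5.44, 4.29, 6.54 and 6.35 CPM in Y-negative tumors. In Y-positive tumors 3 libraries had no read and the others 1 read each. The groups held 556 and 2 reads, a ratio of 283 after scaling to library totals, with a 95% exact counting interval from 78 to 2340, which covers counting error only. Rgs9 is not listed in the tables of cultured cells. Prph (chr15:99055174-99058978), the neuronal intermediate filament peripherin, was at 7.38, 4.49, 5.05, 6.76 and 8.35 CPM against 0.212, 0.79, 0.329, 0.421 and 0.094 CPM. The groups held 572 and 32 reads, a ratio of 18.2 with a counting interval from 12.7 to 26.9, and did not overlap (adjusted p = 0.000486). Nov (chr15:54745702-54754039), also named Ccn3, is a secreted matricellular protein. It was at 34.5, 29.7, 28.4, 35 and 33.7 CPM against 12.3, 11.9, 9.37, 11.7 and 10.7 CPM, with tight groups and no overlap. Its difference was 1.53 ± 0.13 on the log2 scale (SE, adjusted p = 8.59e-05).

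Among the 5 that were lower, Pthlh (chr6:147252101-147264183) encodes parathyroid hormone-related protein, a secreted hormone of many squamous epithelia and their cancers. It was at 1.29, 0.236, 1.43, 1.15 and 0.686 CPM in Y-negative and at 4.77, 10.4, 8.05, 7.21 and 6.62 CPM in Y-positive tumors. That is a difference of -2.93 ± 0.39 on the log2 scale (SE, adjusted p = 0.00312) from 89 and 669 reads. Gldc (chr19:30098449-30175418), the decarboxylase of the mitochondrial glycine cleavage system, was at 1.49, 3.25, 2.64, 1.65 and 2.06 CPM against 13.4, 15.4, 11.7, 13.5 and 11.5 CPM. All 5 Y-positive libraries lay above 11 CPM and all 5 Y-negative ones below 4, and the log2 difference was -2.55 ± 0.24 (SE, adjusted p = 0.000156). Cpxm1 (chr2:130390775-130397574), a secreted protein of the carboxypeptidase family, was at 4.47, 6.32, 12.9, 7.31 and 3.03 CPM against 28.5, 19.6, 37.1, 26.4 and 27.2 CPM (log2 difference -2.02 ± 0.32, adjusted p = 0.00928).

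Gm8212 (chr14:44197661-44203133), a predicted protein-coding gene, had 0 reads in all 5 Y-negative tumors and 395 reads in the Y-positive tumors, where every library had reads and the CPM was 3.87, 2.67, 3.51, 6.25 and 5.17. Against a floor of 3 reads over the Y-negative group this is at least 129-fold lower. Gm8212 belongs to a family of near copies: 36.9% of the 100-base words of its transcripts occur in transcripts of other genes, most often Gm3327 (14.8%). Its level is uncertain, because the sources used here do not say how reads of such copies were divided. It was named after its values were seen. Rgs9, Prph and Anpep share no 100-base word with another gene.

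**Figure D2:**
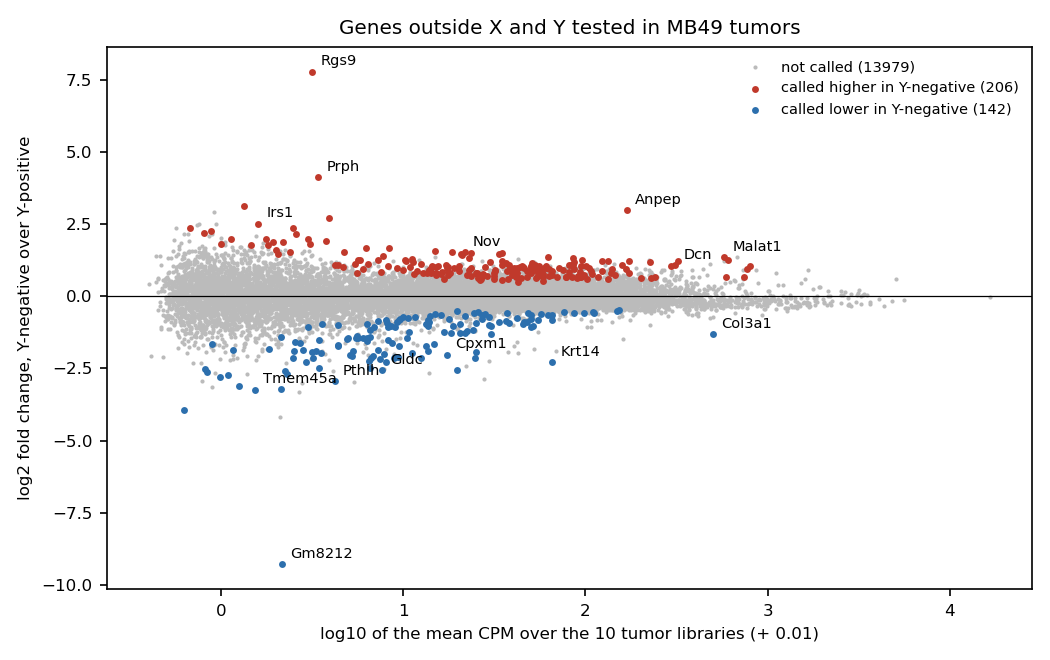
Log2 fold change of Y-negative over Y-positive tumors (y axis) against the log10 mean CPM of the 10 libraries (x axis) for the 14327 tested genes outside X and Y; red marks the 206 called higher and blue the 142 called lower. The fitted changes of Rgs9 and Gm8212, which have 2 or fewer reads in 1 group, depend on the prior count of the fit and are not measured folds.

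Other genes kept the call in all alternatives but the one without MN11, MN13 and MN14. Irs1, the adaptor that links the insulin and IGF1 receptors to PI3 kinase, was at 3.56, 1.83, 2.14, 3.35 and 2.63 CPM in Y-negative and 0.371, 0.486, 0.493, 0.721 and 0.282 CPM in Y-positive tumors (log2 difference 2.52 ± 0.37, adjusted p = 0.00584). The sodium channel Scn3a differed by 2.35 ± 0.40, the adhesion protein Cadm3 by 1.18 ± 0.18, the synaptic adhesion protein Nlgn2 by 1.20 ± 0.19 and the receptor phosphatase Ptprs by 1.08 ± 0.15, all higher. Cadm3, Nlgn2 and Ptprs were named after their values were seen, as were Syt12, Rab3b and Mlph. The exocytosis proteins Syt12 (-1.17 ± 0.19) and Rab3b (-0.97 ± 0.16), the carnitine palmitoyltransferase Cpt1c (-1.92 ± 0.27) and Mlph, which links Rab27a to myosin Va (-1.89 ± 0.30), were lower. Other exocytosis genes were called higher, namely Syt1 (1.91 ± 0.44), Unc13a (1.09) and Vamp1 (0.79). These 3 did not keep the call in all those alternatives, and Unc13a and Vamp1 were named after their values were seen. Fgfbp1, which releases FGFs from the matrix, was at 1.36, 1.3, 1.3, 1.04 and 0.229 CPM against 5.09, 5.47, 6.24, 7.03 and 5.4 CPM and did not overlap (log2 difference -2.48 ± 0.37, adjusted p = 0.00605). Large negative differences were also found for Tmem45a, with 27 against 254 reads, Spdye4b, with 39 against 353, and the cytokine gene Il24, with 23 against 198. Their calls ended when single libraries were left out: Tmem45a without MN11 or MN14, Spdye4b without MN11, MN14 or MP8, and Il24 without MN11, with adjusted p of up to 0.0568, 0.0636 and 0.0515.

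**Figure D3:**
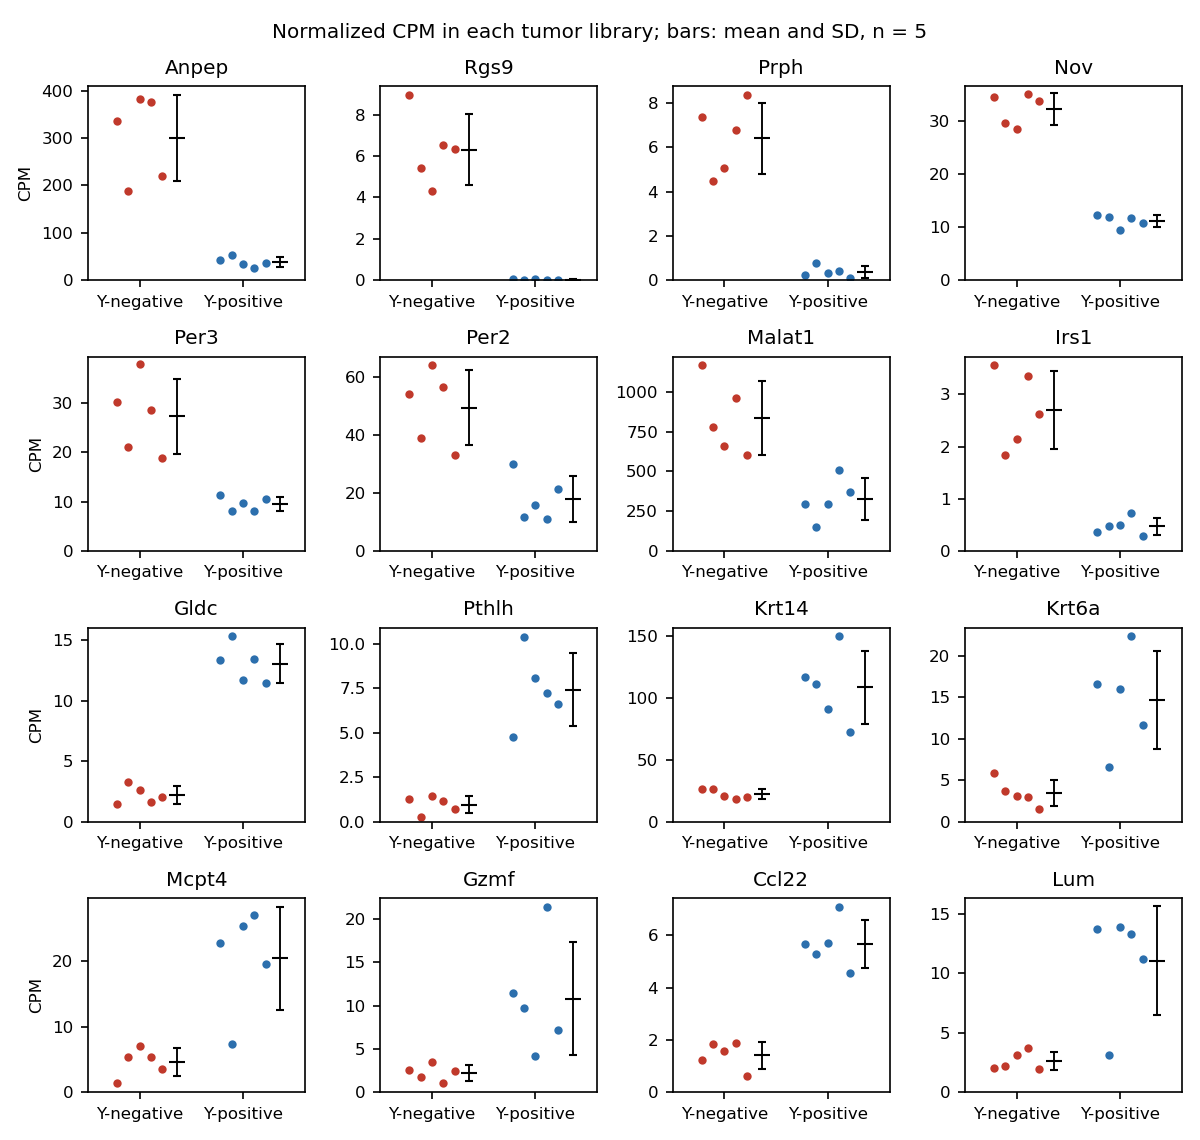
Normalized CPM (y axis, each from 0) of 16 called genes in the 5 Y-negative (red, MN11 to MN15 from left to right) and 5 Y-positive (blue, MP6 to MP10) tumors, with mean and SD beside the points. Groups of points do not overlap except for Lum, where MP7 lies at 3.16 CPM, below the highest Y-negative library at 3.74 CPM.

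Per3, Per2, Per1, Cry2 and Tef, genes of the circadian clock, were higher in Y-negative tumors. The clock is a loop in which CLOCK and BMAL1 bind E-box elements and drive the Per and Cry genes, whose proteins then hold CLOCK and BMAL1 back, and PAR bZIP factors such as DBP and TEF carry the rhythm to other genes. Of 17 tested clock genes, 5 were called higher and 0 lower, against 1.44% and 0.991% of all genes, and 15 of 17 differences were positive with a median of 0.46 on the log2 scale. The shares over all genes are not matched for length. The median length was 5631 bases for the clock genes and 3999 for all tested genes. Both starts of Tef and 1 of Per1 carry the E-box letters CACGTG in the 250 bases before the start, and Per3 does not. These windows are printed because they show the element of the loop in 2 of the 5 called genes, Per1 and Tef, and its absence from the window of the called gene with the most stable call, Per3. They come from RefSeq promoters (GRCm38.p6), are written 5′ to 3′ on the strand of the gene with the E-box in capitals, and end at the base before the start.
Per1, chr11:69098699-69098948, plus strand: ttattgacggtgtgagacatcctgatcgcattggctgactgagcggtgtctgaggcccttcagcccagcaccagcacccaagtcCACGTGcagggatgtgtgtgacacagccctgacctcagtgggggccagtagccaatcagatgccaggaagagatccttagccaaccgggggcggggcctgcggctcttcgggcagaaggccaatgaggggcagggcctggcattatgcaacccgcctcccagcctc
Tef, first start, chr15:81802423-81802672, plus strand: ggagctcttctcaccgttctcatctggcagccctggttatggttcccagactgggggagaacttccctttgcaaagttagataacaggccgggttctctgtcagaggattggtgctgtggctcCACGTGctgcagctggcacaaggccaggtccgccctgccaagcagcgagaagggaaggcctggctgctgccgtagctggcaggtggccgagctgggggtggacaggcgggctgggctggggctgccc
Tef, second start, chr15:81811164-81811413, plus strand: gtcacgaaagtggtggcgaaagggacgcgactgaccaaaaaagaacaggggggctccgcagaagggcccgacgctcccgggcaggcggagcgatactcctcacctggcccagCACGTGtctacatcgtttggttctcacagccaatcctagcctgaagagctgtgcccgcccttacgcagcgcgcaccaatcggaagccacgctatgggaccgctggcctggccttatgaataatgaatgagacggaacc
Per3, chr4:151044666-151044915, minus strand: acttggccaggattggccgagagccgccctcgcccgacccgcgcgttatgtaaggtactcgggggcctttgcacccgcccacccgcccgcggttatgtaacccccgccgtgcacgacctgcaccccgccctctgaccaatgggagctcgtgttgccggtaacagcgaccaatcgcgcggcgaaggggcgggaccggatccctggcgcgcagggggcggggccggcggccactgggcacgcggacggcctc
The letters begin at base -166 in Per1 and at -127 and -138 in the 2 Tef windows, counted from the start. The motif reads the same on both strands. A second Per1 window and the Cry2 window do not hold it, and Per2 has no entry in the table. Of 14 clock genes with an entry, 5 held the letters (Per1, Tef, Cry1, Bhlhe41 and Ciart), and 3 of these (Cry1, Bhlhe41 and Ciart) were not called. The letters occurred in 9.65% of 10344 tested genes with an entry, in 8.67% of 150 genes called higher with an entry and in 6.02% of 32851 windows in the table. A match is a run of letters and was not tested for binding.

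Per3, a repressor of the loop, was at 30.2, 21, 37.9, 28.6 and 18.8 CPM in Y-negative tumors and 11.3, 8.02, 9.64, 8.12 and 10.5 CPM in Y-positive tumors. All Y-negative libraries were above all Y-positive ones, and the log2 difference was 1.52 ± 0.20 (SE, adjusted p = 0.00284). Per2, the second repressor, was at 54.1, 39.1, 64.3, 56.5 and 33 CPM against 30.2, 11.7, 15.7, 10.9 and 21.2 CPM (1.46 ± 0.28, adjusted p = 0.0203). Per1 was at 111, 136, 186, 127 and 113 CPM against 95.7, 49.3, 74.2, 38.8 and 71.4 CPM (1.03 ± 0.23). For all 3 Per genes the groups did not overlap. The groups did overlap for Cry2, the partner repressor (0.98 ± 0.22), and for Tef (0.87 ± 0.20), because MP6 reached 17.9 CPM of Cry2 and 142 CPM of Tef. The core activators, named after their values were seen, did not pass: Clock differed by 0.11 ± 0.18 and Arntl, which encodes BMAL1, by -0.27 ± 0.17. Dbp missed the threshold at 0.76 ± 0.22 (adjusted p = 0.0794), with MP6 again the highest of its group. Per3 kept its call with any single library left out. Per2 lost it without MN11, MN14 or MP8, and Per1, Cry2 and Tef each lost it without MN11, MN13, MN14, MP7, MP8, MP9 or MP10, with adjusted p of up to 0.123. In Per3, Per2, Cry2 and Tef the libraries with the steepest length slopes, MN11, MN13 and MN14, were the highest. In Per1, MN12 was above MN11 and MN14. Per3 also kept its call in the fits that corrected for length. The part that the hour of collection has in these levels was not tested.

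Krt14, Krt6a, Serpinb5 and Lamb3, genes of basal and squamous epithelium, were lower in Y-negative tumors. Of 14 tested, 4 were called lower and 0 higher, against 0.991% and 1.44% of all genes. The median was -0.25 against -0.01 over all genes. Krt14, the type I keratin of basal cells (chr11:100203162-100207548), was at 26.7, 26.1, 20.5, 18.3 and 20.2 CPM in Y-negative and 117, 112, 91, 150 and 72.6 CPM in Y-positive tumors. The Y-negative libraries lay close together and all below the lowest Y-positive one, and the log2 difference was -2.28 ± 0.20 (SE, adjusted p = 8.59e-05). Krt6a, a keratin of wounded and squamous epithelium, was at 5.82, 3.66, 3.08, 3.02 and 1.49 CPM against 16.7, 6.56, 16, 22.4 and 11.7 CPM (-2.10 ± 0.36). It shares 30.6% of its 100-base words with other genes, chiefly Krt6b, which was not analysed here. Serpinb5, or maspin, a serpin of epithelial cells, was at 4.14, 3.13, 1.12, 1.59 and 3.72 CPM against 13.4, 5.1, 12.7, 26.3 and 9.21 CPM (-2.29 ± 0.44). Lamb3, the beta chain of laminin-332, differed by -1.31 ± 0.26. Trp63, the master factor of basal epithelium, differed by 0.72 ± 0.44 and Itgb4, the hemidesmosome integrin, by 0.55 ± 0.24, neither called and both positive. Outside the list, the cornified-layer genes Cnfn (-1.94 ± 0.33) and Dmkn (-2.70 ± 0.62) were called lower. Other genes of that layer were called higher: Evpl (1.53 ± 0.27), Ppl (1.24) and Cdsn (1.24). Ppl and Cdsn were named after their values were seen. Evpl lost its call without MP8 (adjusted p = 0.0522), and Ppl and Cdsn did not keep theirs in every alternative. Serpinb5 lost its call without MN14 or MP8, Lamb3 without MN11 or MN14 and Dmkn without MN13, MN14, MN15, MP8, MP9 or MP10, with adjusted p of up to 0.0663, 0.0674 and 0.116. Dmkn also lost it with the length trend removed (adjusted p = 0.0511).

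Markers of the labelled tissue were mixed. Krt8 and Krt18, the keratin pair of simple epithelium, were abundant in all 10 tumors: 2295 to 3121 and 1207 to 1356 CPM in Y-negative, 2961 to 3482 and 1383 to 2263 CPM in Y-positive tumors. Neither was called. The urothelial plaque gene Upk2 had 4 reads in all 10 libraries together, Upk1b 17 and Upk1a at most 2.04 CPM, so these markers of mature urothelium were near 0. The basal keratin Krt5, with 51 reads, and the epithelial adhesion gene Epcam, with 63, were also near 0. Of 13 tested luminal genes 1 was called, against 2.43% of all genes. Gata3, a factor of luminal urothelium that T and innate lymphoid cells also express, was higher (1.13 ± 0.24). It was at 8.67, 5.55, 6.66, 9.24 and 7.03 CPM against 3.61, 4.25, 4.16, 2.77 and 2.21 CPM. Krt19 (-1.63 ± 0.41, adjusted p = 0.0555) and the epithelial cadherin Cdh1 (-1.32 ± 0.34, adjusted p = 0.0571) did not overlap between groups and missed the threshold. Gata3 lost its call without MP8, MP9, MP10, MN11, MN13 or MN14 (adjusted p of up to 0.108). Of 8 listed genes of skin and hair keratinocytes 1 passed the filter, and the 8 summed to 4.12 to 9.36 CPM in any library.

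Proteases and a receptor chain of mast cells were lower in Y-negative tumors. Of 15 tested genes of mast cells and basophils, 6 were called lower and 0 higher, against 0.991% and 1.44% of all genes. The median difference was -1.58. These genes are short, with a median length of 1517 bases against 3999 over all tested genes. Cma1, the chymase of connective tissue mast cells, was at 0.453, 2.36, 3.93, 1.54 and 1.6 CPM in Y-negative and 11.7, 3.95, 14.8, 13.2 and 12 CPM in Y-positive tumors (-2.47 ± 0.46, adjusted p = 0.0195). Mcpt4, a second chymase, was at 1.49, 5.32, 7.06, 5.39 and 3.54 CPM against 22.8, 7.35, 25.3, 26.9 and 19.5 CPM (-2.15 ± 0.39). The tryptase Tpsb2 (-1.97 ± 0.37), the mucosal proteases Mcpt1 (-2.02 ± 0.49) and Mcpt2 (-2.14 ± 0.50) and the IgE receptor chain Fcer1a (-2.60 ± 0.62) were also called. In Cma1, Mcpt4, Mcpt1, Mcpt2, Tpsb2 and Fcer1a alike MP7 was the lowest Y-positive library, and it fell within the Y-negative range for Mcpt2, Tpsb2 and Fcer1a. Carboxypeptidase Cpa3 missed the threshold (-2.04 ± 0.52, adjusted p = 0.055), as did the lineage factor Gata2 (-1.13 ± 0.51). Mcpt8, a protease known from basophils, differed by -0.46 ± 0.17 and was not called. It also had 5561 reads in cultured MB49 cells, which hold no host cells. The share of the cancer cells in its tumor level was not tested. All 18 listed genes had reads and summed to 66.7 to 86.9 CPM in Y-negative and 90.6 to 185 CPM in Y-positive tumors. Mcpt8 is part of this sum, at 15.5 to 25.9 normalized CPM in Y-negative and 24.9 to 32.8 in Y-positive tumors. The proteases share at most 0.0991% of their 100-base words with another gene. Calls ended without MN14 or MP8 for Cma1, without MP8 for Mcpt4, without MN11, MN14 or MP8 for Tpsb2 and for Mcpt1, Mcpt2 and Fcer1a without MN11, MN14, MP6, MP8, MP9 or MP10, to which MN13 and MN15 add for Mcpt1, MN13 for Mcpt2 and MN15 for Fcer1a (adjusted p of up to 0.135). Fcer1a lost its call with the length trend removed too (adjusted p = 0.0679).

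Gzmc, Gzmd, Gzmf and Gzmg were also lower in Y-negative tumors. Of 19 tested genes of cytotoxic granules, 4 were called lower and 0 higher, against 0.991% and 1.44% of all genes. The median difference was -0.76. These genes too are short, with a median length of 1389 bases. The 4 are neighbours in the granzyme cluster on chromosome 14, expressed by activated killer lymphocytes. Gzmf was at 2.52, 1.77, 3.49, 1.04 and 2.46 CPM in Y-negative and 11.4, 9.72, 4.16, 21.3 and 7.24 CPM in Y-positive tumors, without overlap (-2.25 ± 0.42, adjusted p = 0.0195). Gzmg differed by -1.87 ± 0.39, Gzmd by -1.72 ± 0.36 and Gzmc by -1.53 ± 0.31, and Gzmc was at 5.18, 3.37, 3.71, 1.81 and 7.26 CPM against 10.8, 13.8, 10.8, 15.9 and 10.1 CPM. For Gzmc, Gzmd, Gzmf and Gzmg alike MP9 was the highest library. Gzme missed the threshold (-1.13 ± 0.35, adjusted p = 0.0983). The main killer protease Gzmb was at 16.5, 18.7, 11.2, 6.93 and 24.1 CPM against 17.6, 27.8, 33.4, 26.2 and 26.4 CPM, and the groups overlapped (-0.76 ± 0.28, adjusted p = 0.142). Perforin, Prf1, also overlapped (-0.93 ± 0.33). Gzmd and Gzmg share under 0.25% of their 100-base words, so reads of these neighbours are mostly separable. Calls ended without MN11 or MN14 for Gzmf and without MN13, MP8 or MP9 for Gzmc, Gzmd and Gzmg, to which MN11 adds for Gzmc, MN14 for Gzmd and both for Gzmg (adjusted p of up to 0.0786).

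Few T cell genes passed. Of 22 tested genes of the T cell receptor and coreceptors 1 was called lower, against 0.991% of all genes. This was Thy1, at 16.8, 17.8, 22.9, 20.7 and 21.1 CPM against 38.2, 36.2, 39.8, 44.7 and 37.5 CPM (-0.98 ± 0.13, adjusted p = 0.0024). Thy1 is a surface protein of T cells and of fibroblasts, and stands in both lists. The median of the 22 was -0.48 and 20 were negative. Cd3e, a chain of the receptor complex, was at 2.33, 6.03, 6.03, 6.21 and 5.83 CPM against 2.81, 4.44, 8.33, 4.15 and 4.37 CPM (0.14 ± 0.33), and Cd8a differed by -0.36 ± 0.33. The constant region gene Trac differed by -0.59 ± 0.22 and Tcf7, a factor of naive and stem-like T cells, by -0.77 ± 0.27 without overlap, and neither was called. The summed level of the 22 genes was 76.9 to 135 CPM in Y-negative and 108 to 201 CPM in Y-positive tumors. No gene of 16 checkpoint receptors and ligands was called. The costimulatory ligand Cd80 came nearest (-0.84 ± 0.21, adjusted p = 0.0539), and it also had 30610 reads in cultured MB49 cells.

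Ccl22 and Ccr7, which stand in the dendritic cell list, were lower in Y-negative tumors. Ccl22, a ligand of CCR4, was at 1.23, 1.83, 1.56, 1.87 and 0.629 CPM in Y-negative and 5.67, 5.29, 5.7, 7.09 and 4.56 CPM in Y-positive tumors (-1.98 ± 0.30, adjusted p = 0.00749). Ccr7, the receptor that guides dendritic and naive T cells to lymph nodes, was at 2.39, 2.66, 1.25, 2.75 and 1.32 CPM against 6.15, 4.38, 8.54, 8.36 and 5.83 CPM (-1.68 ± 0.30). Ccr7 was also read in cultured MB49 cells, at 2.004 ± 1.373 CPM in Y-negative and 4.67 ± 2.48 CPM in Y-positive libraries (SD, n = 5), while Ccl22 is not listed there. Both separated the groups fully. They are the 2 calls of 14 tested dendritic cell genes, against 0.991% called lower over all genes. The median of the 14 was -0.70, and Ccr7 lost its call without MP8 (adjusted p = 0.055). Ccl17, a second CCR4 ligand, missed the threshold (-1.66 ± 0.44, adjusted p = 0.0612), as did Itgax, which encodes CD11c (-0.59 ± 0.16, adjusted p = 0.0645), and the lineage factor Zbtb46 (-0.97 ± 0.35). All 11 tested MHC class II genes had negative differences, with a median of -0.64, and none was called. H2-DMb2 came nearest, at 0.501 times the Y-positive level in the fit (adjusted p = 0.0531). The 11 genes summed to 1240 to 2750 CPM in Y-negative and 2440 to 4360 CPM in Y-positive tumors, and MN11 and MN14 were the lowest. Cd74, which is part of this sum, also had 73600 reads in cultured MB49 cells. No gene of 18 for MHC class I and peptide loading was called. None of 25 interferon-stimulated genes was called either, with a median of 0.07. These counts cover the listed members only. Outside the lists, the class I gene H2-Q6 (-0.91) and Ifi27l2b (-1.48) were called lower, though not in every alternative. Both were named after their values were seen.

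Nos2 and Lcn2, which stand in the macrophage and neutrophil lists, were higher in Y-negative tumors, and both had reads in cultured MB49 cells. Nos2, the inducible nitric oxide synthase of activated macrophages, was at 113, 111, 107, 128 and 98.6 CPM in Y-negative and 40.1, 77.5, 48.3, 39.5 and 55.3 CPM in Y-positive tumors (1.10 ± 0.18, adjusted p = 0.0114). Cultured cells, which hold no host cells, had 44.6 ± 37.5 CPM of Nos2 (SD, n = 5) in Y-negative and 29.4 ± 8.75 CPM in Y-positive libraries. It was the 1 call among 24 tested macrophage and monocyte genes, against 2.43% of all genes, and their median was -0.22. The macrophage marker Adgre1 differed by -0.21 ± 0.17 and Cd163 by 0.82 ± 0.22, neither called. Lcn2, a siderophore-binding protein of neutrophils and inflamed epithelium, was at 18.5, 32.6, 16.8, 31 and 13.2 CPM against 5.2, 13.4, 6.02, 6.79 and 6.11 CPM (1.58 ± 0.31), where MP7 reached above MN15. Cultured cells had more, at 169 ± 92.9 CPM of Lcn2 in Y-negative and 134 ± 121 CPM in Y-positive libraries (SD, n = 5). The share of the cancer cells in the tumor levels of Nos2 and Lcn2 was not tested. Lcn2 was the 1 call of 10 neutrophil genes, against 2.43% of all genes. The call of Lcn2 ended without MN11, MN14, MP8, MP9 or MP10 (adjusted p of up to 0.0757). Of 12 complement genes 1, the C1 inhibitor Serping1, was called lower (-1.29 ± 0.29), against 0.991% of all genes. That call ended without MN11, MN14, MN15, MP8, MP9 or MP10 (adjusted p of up to 0.105) and with the length trend removed (adjusted p = 0.0682).

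The B cell and plasma cell list had no call among 8 tested genes. Jchain, the joining chain of secreted antibodies, was at 0.388, 3.96, 0.894, 0.33 and 0.4 CPM against 3.02, 0.851, 11.4, 24.9 and 7.28 CPM, and Igkc, the kappa constant region, at 1.42, 26.2, 11.1, 5.17 and 7.2 CPM against 12.5, 8.39, 89.7, 79.5 and 54.9 CPM. Both were highest in MP8, MP9 and MP10 and overlapped between the groups. The defining B cell genes Cd79a and Ms4a1 had 78 and 33 reads in all 10 libraries together.

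Pi16, Mfap5, Serpinf1, Clec3b and Thy1, genes of fibroblasts, were lower in Y-negative tumors. Of 23 tested genes of fibroblasts and mural cells, 5 were called lower and 0 higher, against 0.991% and 1.44% of all genes, with a median of -0.67. Dcn, also a fibroblast marker but counted in the matrix list below, was called higher (1.07 ± 0.14). Pi16, a marker of adventitial fibroblasts, was at 2.14, 1.65, 4.96, 1.37 and 3.32 CPM in Y-negative and 12.5, 5.29, 16.7, 14.9 and 11.4 CPM in Y-positive tumors (-2.16 ± 0.38, adjusted p = 0.0142). Mfap5, a microfibril protein, differed by -1.63 ± 0.38, Serpinf1, an antiangiogenic serpin, by -1.25 ± 0.21, Clec3b by -0.81 ± 0.19 and Thy1 as given above. The receptor Pdgfra, found on most fibroblasts, was at 27.7, 11.8, 25.1, 26.5 and 14.9 CPM against 21.7, 13.9, 15.1, 16.3 and 16.6 CPM and was not called (0.34 ± 0.23). Pdgfra also had 3279 reads in cultured MB49 cells, which hold no host cells, and the share of the cancer cells in its tumor level was not tested. The 24 listed genes summed to 901 to 1040 CPM in Y-negative and 1080 to 1590 CPM in Y-positive tumors. MP9 was the highest of these libraries, as it was for muscle and fat genes, whose part in these differences was not tested. Serpinf1 kept its call with any library left out. Pi16 lost it without MN11 (adjusted p = 0.0515). Mfap5 lost it without MN11, MN14, MP7, MP8, MP9 or MP10 and Clec3b without any library but MN12 and MP7 (adjusted p of up to 0.12 and 0.123), and Clec3b with the length trend removed (adjusted p = 0.136).

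Of 30 tested collagens and matrix genes, 3 were called lower and 1 higher, against 0.991% and 1.44% of all genes, with a median of -0.36. The small leucine-rich proteoglycans Dcn and Lum, which bind collagen, went apart. Dcn, decorin, was at 410, 409, 531, 383 and 374 CPM in Y-negative and 216, 164, 205, 201 and 215 CPM in Y-positive tumors (1.07 ± 0.14, adjusted p = 0.00235). Lum, lumican, was at 2.07, 2.19, 3.13, 3.74 and 2 CPM against 13.7, 3.16, 13.9, 13.3 and 11.2 CPM (-2.07 ± 0.36, adjusted p = 0.0142), with MP7 inside the Y-negative range. Col3a1, the type III collagen chain, was at 261, 159, 443, 325 and 252 CPM against 912, 373, 759, 840 and 711 CPM (-1.32 ± 0.28), again with MP7 the lowest Y-positive library and inside the Y-negative range. Col1a2 missed the threshold (-0.99 ± 0.27, adjusted p = 0.0671). Thbs2, a thrombospondin of the stroma, differed by -0.97 ± 0.18. Lum lost its call without MN11, Thbs2 without MN11 or MP8 and Col3a1 without MN11, MN14, MP8, MP9 or MP10 (adjusted p of up to 0.0514, 0.061 and 0.0914), while Dcn kept it. The lipocalin Apod (-1.90 ± 0.28) was called lower as well, as were Islr (-1.05 ± 0.18) and Efemp2, which helps to assemble elastic fibres (-1.40 ± 0.22), both named after their values were seen. All 12 basement membrane genes had positive differences, with a median of 0.64, and none was called. Perlecan, Hspg2, was at 421, 144, 344, 487 and 179 CPM against 146, 218, 79.7, 101 and 116 CPM, high in MN11, MN13 and MN14 and within the Y-positive range in MN12 and MN15. These genes are long, with a median length of 7868 bases.

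Matrix proteases and the plasminogen system had 4 genes lower and 1 higher of 23 tested, against 0.991% and 1.44% of all genes. Mmp3, stromelysin-1, was at 3.82, 9.93, 15, 7.64 and 9.21 CPM in Y-negative and 41.2, 15.1, 59, 38.4 and 47.6 CPM in Y-positive tumors (-2.14 ± 0.36, adjusted p = 0.0127). MP7 at 15.1 CPM stood just above MN13, the highest Y-negative library. Plau, the urokinase that activates plasminogen, was at 48.9, 45.9, 45, 44.6 and 56.1 CPM against 59.3, 85.3, 75.7, 86.5 and 73.2 CPM (-0.66 ± 0.13). Mmp2, gelatinase A (-1.26 ± 0.30), and Serpine2, an inhibitor of urokinase and thrombin (-1.20 ± 0.29), were lower, and the aggrecanase family member Adamts1 was higher (0.97 ± 0.18). Mmp3 kept its call with any library left out, and the other 4 lost it without MN11, MN14 or MP8, Plau also without MN13, MP9 or MP10, Adamts1 without MN13 or MP9, Mmp2 without MN15, MP6, MP7 or MP10 and Serpine2 without these or MP9 (adjusted p of up to 0.138). Mmp2 lost it with the length trend removed as well (adjusted p = 0.0552).

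Targets of the hypoxia-inducible factors and glycolytic enzymes had 4 of 31 called higher and 1 lower, against 1.44% and 0.991% of all genes. Differences were positive for 26, with a median of 0.32. Vegfa, the main angiogenic growth factor, was at 202, 188, 139, 183 and 174 CPM in Y-negative and 98.1, 118, 85.1, 99.8 and 102 CPM in Y-positive tumors (0.82 ± 0.14, adjusted p = 0.0114). Eno2, the neuronal enolase that is also a HIF target, was at 30.4, 27.1, 33.6, 21.2 and 24.2 CPM against 11.8, 8.75, 14.7, 13.3 and 16.8 CPM (1.06 ± 0.19). Egln3, a prolyl hydroxylase that marks HIF for degradation (0.62 ± 0.13), and Ero1l, an oxidase of the endoplasmic reticulum (0.67 ± 0.16), were called higher. Adm, the vasodilator adrenomedullin and a HIF target too, was lower, at 31.5, 44.2, 30.3, 28.7 and 28.6 CPM against 64.4, 84.9, 63.3, 66.9 and 58.7 CPM (-1.05 ± 0.15, adjusted p = 0.00584). In each of these 5 genes the groups did not overlap. The glycolytic enzymes Gapdh and Ldha, named after their values were seen, differed by 0.03 and -0.08 on the log2 scale and were not called. Vegfa and Adm kept their calls with any library left out. Eno2 lost it without MN11 (adjusted p = 0.0515), Egln3 without MP8, MP9, MP10, MN11, MN13 or MN14 and Ero1l without these or MP6 (adjusted p of up to 0.091 and 0.132).

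Among enzymes of serine, glycine and one-carbon metabolism 2 of 18 were called lower and 0 higher, against 0.991% and 1.44% of all genes. Beside Gldc, this was Aldh1l1, a folate dehydrogenase of the cytosol, at 31.3, 36.3, 39.3, 35.8 and 24.6 CPM in Y-negative and 76.6, 76.5, 61, 42.5 and 56.1 CPM in Y-positive tumors (-0.90 ± 0.18, adjusted p = 0.024). Amt, which acts beside Gldc in glycine cleavage, went the other way without passing, at 4.08, 4.2, 4.07, 3.63 and 4.52 CPM against 1.8, 2.37, 1.2, 2.71 and 3.19 CPM (0.86 ± 0.28, adjusted p = 0.11). Aldh1l1 lost its call without MN11, MN14 or MP8 (adjusted p of up to 0.0798). Crabp1, which binds retinoic acid in the cytoplasm, was the 1 call of 16 retinoid genes, against 2.43% of all genes. It was at 2.14, 1.89, 3.53, 1.43 and 3.2 CPM against 17, 6.81, 14.9, 6.61 and 8.97 CPM (-2.15 ± 0.34, adjusted p = 0.00928). It separated the groups and kept its call with any library left out. Ppargc1a, a coactivator of mitochondrial genes, was called higher at 2.65, 1.71, 5.76, 4.89 and 2.17 CPM against 0.796, 1.22, 0.767, 0.721 and 1.17 CPM (1.88 ± 0.39), and lost its call without MP8, MP9, MP10, MN11, MN13 or MN14 (adjusted p of up to 0.0934). None of 24 nuclear genes of oxidative phosphorylation was called, with 22 negative and a median of -0.21. None of 15 mitochondrially encoded transcripts was called, with 13 positive and a median of 0.47.

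Signalling genes were called one by one. In the TGF-beta and CCN list 2 of 20 were higher and 1 lower, against 1.44% and 0.991% of all genes. They are Nov, Ltbp2, which binds to fibrillin microfibrils, and Wisp2. Ltbp2 was at 26.5, 22.3, 23.8, 22.3 and 31.2 CPM in Y-negative and 12.7, 17.2, 12.1, 10.1 and 11.6 CPM in Y-positive tumors (0.98 ± 0.17, adjusted p = 0.0127). Wisp2, also named Ccn5 and so a relative of Nov, was at 2.01, 3.37, 3.84, 2.75 and 5.03 CPM against 8.49, 4.92, 11.3, 11.5 and 9.91 CPM (-1.44 ± 0.29), with MP7 inside the Y-negative range. Igfbp7 was the 1 call of 10 in the IGF axis (-0.64 ± 0.15). Notch1 was the 1 call of 19 Notch and Wnt genes (1.06 ± 0.25) and Fosl2, an AP-1 subunit, the 1 call of 18 immediate early genes (0.72 ± 0.16). Over all genes 2.43% were called in either direction. Fos was at 22.3, 12.1, 11.5, 10.8 and 10.1 CPM against 4.4, 7.6, 6.52, 9.44 and 5.17 CPM and missed the threshold (1.01 ± 0.27, adjusted p = 0.0612). Ltbp2 kept its call with any library left out. Wisp2 and Fosl2 lost it without MP8, MP9, MP10, MN11, MN13 or MN14, Notch1 without these or MP7 and Igfbp7 without any library but MN12, with adjusted p of up to 0.0786, 0.114, 0.13 and 0.125. Igfbp7 lost it with the length trend removed too (adjusted p = 0.218).

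Jmjd1c, Kdm6b, Kdm4b, Kmt2a and Zbtb20, chromatin and transcription regulators, and the RNAs Malat1 and Neat1 were higher in Y-negative tumors. Of 16 histone lysine demethylases outside X and Y, 3 were called higher and 0 lower, against 1.44% and 0.991% of all genes. Differences were positive for 14, with a median of 0.47. Jmjd1c, a member of the KDM3 family, was at 170, 104, 146, 174 and 99.1 CPM in Y-negative and 87.9, 70.1, 56.9, 58.7 and 78 CPM in Y-positive tumors (0.98 ± 0.19, adjusted p = 0.021). Kdm6b, which removes the repressive mark H3K27me3 (adjusted p = 0.0245), and Kdm4b (0.90 ± 0.22) also passed. The methyltransferase Kmt2a was at 175, 69.7, 128, 170 and 67.7 CPM against 63.9, 45.2, 38.2, 36.1 and 60.3 CPM (1.32 ± 0.28), with MN12 and MN15 just above MP6. The transcriptional repressor Zbtb20 was at 66.2, 28.9, 61.8, 68.4 and 32 CPM against 22.6, 20.2, 14.1, 13.9 and 20 CPM (2.83-fold, adjusted p = 0.0138), and with the length trend removed its log2 difference was 0.77 (adjusted p = 0.00419). In Zbtb20, Kmt2a and Jmjd1c the 3 libraries with the steepest length slopes, MN11, MN13 and MN14, were the highest. Malat1, a nuclear noncoding RNA of splicing speckles, was at 1169, 778, 661, 959 and 605 CPM against 294, 150, 296, 511 and 372 CPM (1.36 ± 0.28, adjusted p = 0.0272). Neat1, the scaffold RNA of paraspeckles, was at 1178, 823, 669, 838 and 759 CPM against 206, 397, 268, 551 and 384 CPM (1.24 ± 0.24), but with the length trend removed it differed by 0.64 (adjusted p = 0.251). They are the 2 calls of 11 listed noncoding RNAs. The splicing-associated gene Pnisr was the 1 call of 22 CLK and SR splicing genes (0.74 ± 0.15), and its adjusted p was 0.13 with the trend removed. Zbtb20 kept its call with any single library left out. Malat1 and Neat1 lost theirs without MN11, MN14, MP8 or MP10, Pnisr without MN11, MN14, MP8 or MP9, and Jmjd1c, Kdm6b, Kdm4b and Kmt2a without MN11, MN14, MP8 or MP9, with MN13 added for all but Kdm6b, MP10 for all but Jmjd1c and MP7 for Kdm4b and Kmt2a, with adjusted p of up to 0.133.

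Among unlisted noncoding transcripts, Gm37261 was at 9, 7.09, 5.32, 7.26 and 5.32 CPM in Y-negative and at 0.304 to 1.74 CPM in Y-positive tumors (2.72 ± 0.38, adjusted p = 0.0043). AA414992 (2.15 ± 0.30), B930095G15Rik (1.97 ± 0.30) and Gm16576 (1.11 ± 0.18) were higher as well, each without overlap and with the call kept when any single library was left out. In all, 20 long noncoding or unclassified transcripts were called higher and 6 lower of 1137 tested, or 2.29%, beside 2.54% of 12561 protein-coding genes. Because no source used here states the strand setting of the counting, transcripts that overlap a gene on the other strand cannot be told apart from it.

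**Figure D4:**
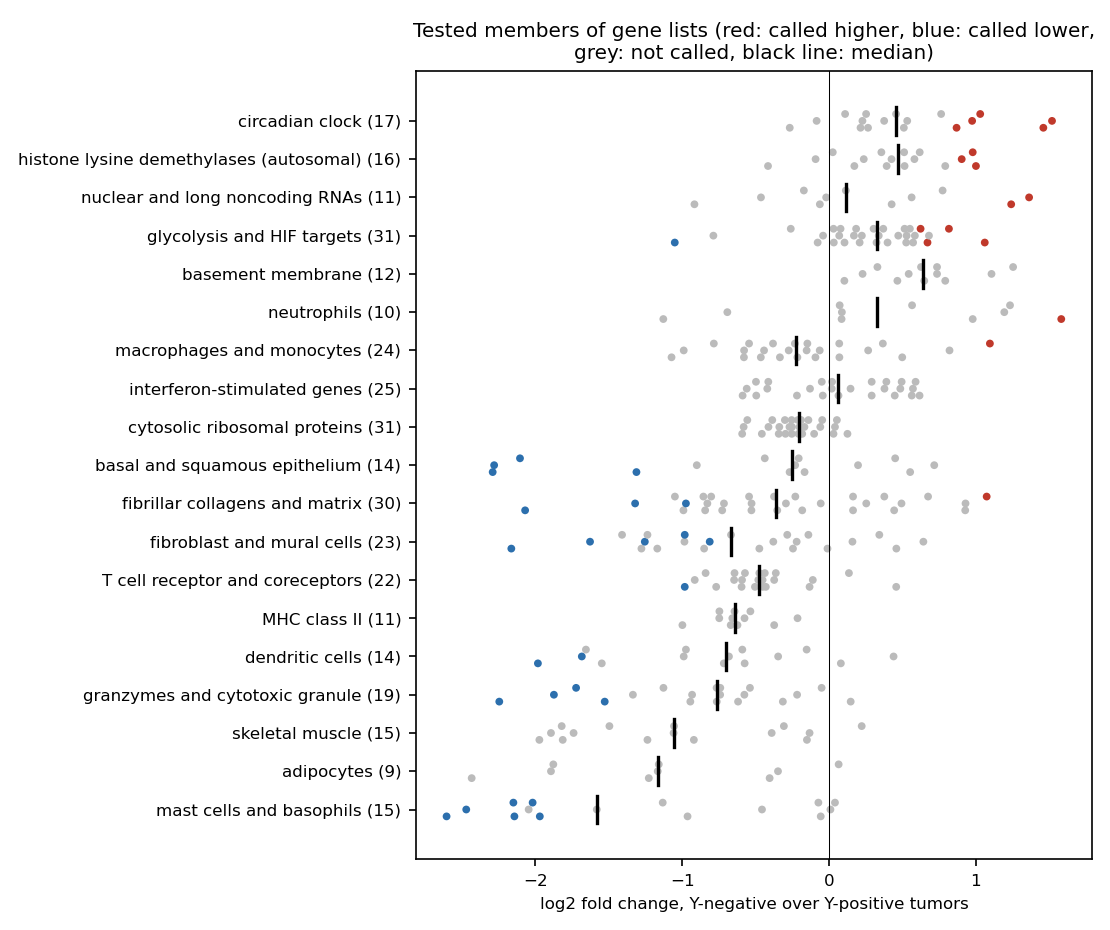
Log2 fold change of Y-negative over Y-positive tumors (x axis) for each tested member of 19 gene lists (y axis, with the number tested); red marks members called higher, blue those called lower, grey those not called, and the black line is the median. Medians run from -1.58 for mast cell genes to 0.64 for basement membrane genes, where no member was called.

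No proliferation gene tested was called. None of 20 mitosis, 21 DNA replication or 12 histone genes was called. Mki67 differed by 0.68 ± 0.27, with 654, 276, 607, 696 and 371 CPM in Y-negative and 344, 481, 218, 254 and 328 CPM in Y-positive tumors, and Aurka, a spindle kinase, by -0.42 ± 0.12 (adjusted p = 0.0713). Mki67 is a long gene, and its 3 highest libraries were again MN11, MN13 and MN14. Calls were also absent among 16 endothelial genes, 31 ribosomal protein genes, 22 cholesterol and fatty acid genes, 15 amino acid transporters, 18 stress response genes, 14 NRF2 targets, 16 p53 targets, 10 genes of the EGF receptor family and 11 reference genes. Muscle genes had no call either (0 of 15), with a median of -1.06. Acta1, skeletal actin, was at 1.55, 64.1, 205, 102 and 50.4 CPM against 0.159, 206, 76.5, 814 and 97.7 CPM, highest in MP9 and lowest in MP6. Adipocyte genes had 0 of 9 called and a median of -1.17, and Cfd, adipsin, was at 6.73, 1.48, 7.06, 2.53 and 16.6 CPM against 30.2, 8.02, 30.3, 103 and 14.9 CPM.

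Gene length went with the direction of the calls. Tested genes were split by length into 5 bins. In the shortest bin 8 were called higher and 48 lower, and in the longest bin 104 were higher and 6 lower. The median length was 7176 bases for genes called higher, 2486 bases for those called lower and 3981 bases for those not called. The median log2 difference rose from -0.21 in the shortest bin to 0.27 in the longest. With each library's length trend removed, 403 genes were called, 52.9% of them higher, and 265 were among the 348. With the length slope of the library as a covariate, 627 were called, 295 of them among the 348. The part of library quality in this trend was not tested, and the slope cannot be told apart from the trio MN11, MN13 and MN14 among the Y-negative tumors.

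**Figure D5:**
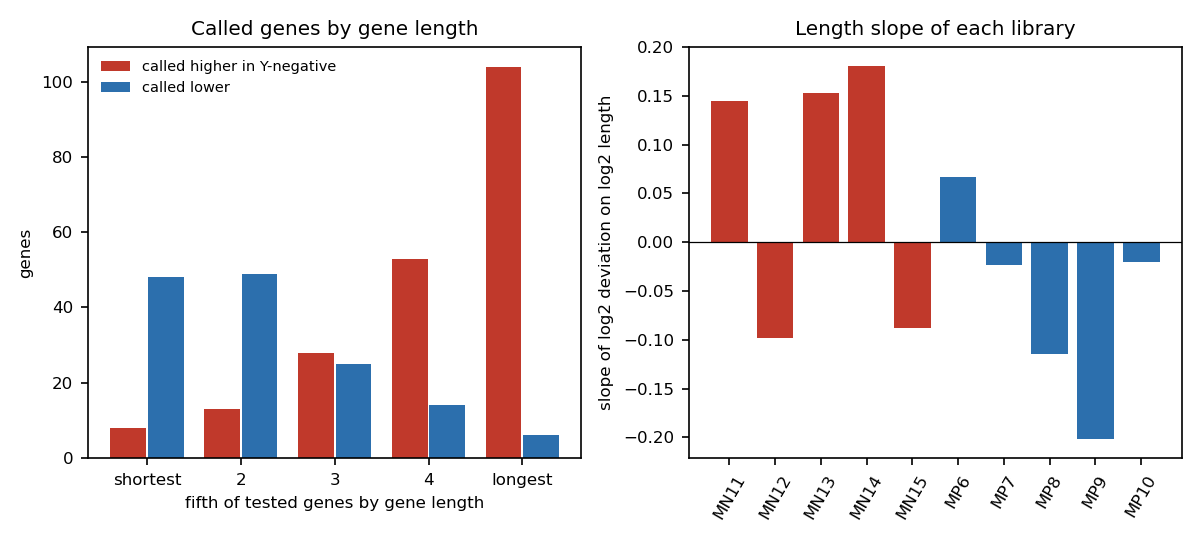
Left, number of called genes (y axis) by bin of tested genes ordered by gene length, 5 bins of nearly equal size (x axis), red higher and blue lower in Y-negative tumors; right, slope of the log2 deviation of each library from the gene mean on log2 gene length (y axis) for the 5 Y-negative (red) and 5 Y-positive (blue) libraries. Genes called higher go from 8 in the shortest to 104 in the longest bin, and the slopes of MN12 and MN15 are negative while those of MN11, MN13 and MN14 are positive.

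Many genes called lower in Y-negative tumors are not listed in the tables of cultured cells at all: 51 of 142, or 35.9%, against 10 of 206 called higher (4.85%) and 11.2% of all tested genes. Cma1, Mcpt4, Gzmf, Gzmc, Ccl22, Lum, Pi16 and Thy1 are among the 51, and so are Pthlh and Gldc. For the 287 called genes listed in both kinds of table, the genotype difference in tumors was set against that in cultures with an interaction term over 20 libraries. It passed for 110 of them, 80 of 196 called higher and 30 of 91 called lower, and for 4.62% of the 13340 genes in that fit. These shares are not comparable, because genes called in the same tumor libraries enter the test with a large tumor difference. In cultures the difference was above 0 for 86 of the 196 and below 0 for 110. It was above 0 for 49 of the 91 and below 0 for 42. The 5 called clock genes were among the 80. Per1 was at 133 ± 88.1 CPM in Y-negative and 328 ± 65.9 CPM in Y-positive cultures (SD, n = 5), and its difference between tumors and cultures was 2.29 ± 0.45 (SE, adjusted p = 0.0102). The corresponding values were 1.97 ± 0.30 for Per3, 2.10 ± 0.35 for Per2, 1.30 ± 0.26 for Cry2 and 1.54 ± 0.30 for Tef. Anpep was at 26.6 ± 15.5 CPM in Y-negative and 18.4 ± 8.02 CPM in Y-positive cultures, and its tumor difference was larger by 2.39 ± 0.53 (adjusted p = 0.0183). Krt14 was near 1 CPM in both kinds of culture, at 1.10 ± 1.27 CPM (SD) in Y-positive ones (difference -2.40 ± 0.66, adjusted p = 0.0428). Ltbp2 was at 20.2 ± 3.18 CPM (SD) in Y-negative cultures, a log2 difference of -0.91 from Y-positive ones, and was higher in Y-negative tumors (difference 1.85 ± 0.22, adjusted p = 0.000321). The number that passed fell to 55 without MN11, 61 without MN14 and 72 without MP8 or MP9.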

How the data were processed

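Tumor RNA came from a Qiagen spin kit and libraries from a SMARTER mRNA-Seq kit, per the labels' protocols. The submitters' processing notes list RSEM 1.3.1, STAR 2.7.0d, cutadapt 2.3, MultiQC 1.8, FastQC 0.11.5 and mm10. The role of each, the annotation and the strand setting are not given in the sources used. The deposited tables hold whole-number read counts by gene, per the file headers, and these were used as deposited. Their other columns were not used. Among these, 1 column belonged to another sample: the normalized column in the table of MN14 is headed MN13 and equals that of MN13 for 100% of genes, while the read counts of MN13 and MN14 are equal for 19.9%.

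Tables were joined by gene ID, and 25 names that a spreadsheet had changed were looked up by ID in GENCODE. Genes of X and Y stayed in the fit and its adjustment but are not reported. Counts were tested 5 against 5 with edgeR 4.0.16 in R 4.3.3 (TMM, filterByExpr with a minimum count of 10 and total of 15, quasi-likelihood F-test, Benjamini-Hochberg), with no covariate and a threshold of 0.05. The script was tested on simulated data. CPM of genes are after TMM, while summed marker levels and the levels of untested markers are per library total. The difference between tumors and cultures was a contrast of 4 group means over 20 libraries. Errors after ± are SE unless SD is named. Counting intervals are exact at 95%, cover counting error only, and use a floor of 3 reads over a group.

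Alternatives were DESeq2 1.42.0, limma 3.58.1 (voom), other scalings and filters, length corrections and left-out libraries. The gene lists and members were chosen with earlier results of these data known. Names follow a rule: the 25 largest changes each way that passed, averaged 1 CPM or more and did not overlap (without predicted genes and pseudogenes), then per list up to 8 called and 4 other members by p, defining markers, and up to 8 called noncoding genes. Not every gene so chosen is named, and genes outside the rule are marked. Some items are not reported here. List members found under no name in the tables were not analysed here.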

Additional observations from a re-analysis of the deposited data

Results flagged for a closer look

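In 19 of 288 groups of 5 libraries, 1 library stood far from the others (Dixon's test), where chance alone gives about 1 in 20 groups. MP7 was that library for Slc1a7 (2.07 CPM), Cma1 (3.95), Mcpt4 (7.35), Fcer1a (0.608), Zbtb46 (1.52), Lcn2 (13.4), Dcn (164), Lum (3.16) and Col3a1 (373 CPM). MP9 stood apart for Mfap5 (24.7 CPM), Serpinf1 (33.2) and Igfbp7 (84.9), and MP6 for Tef (142) and Cdh1 (8.96). Among Y-negative tumors the libraries were MN11 for Cd3e (2.33 CPM) and Fos (22.3), MN12 for Adm (44.2), MN13 for Dcn (531) and MN15 for Fgfbp1 (0.229).

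The genotype difference was not the same in tumors and cultures for 110 called genes by the interaction test, 23 of them among the genes chosen for naming. Genes called in tumors pass this test more readily, since it uses the same tumor libraries. On the log2 scale, the tumor difference exceeded the culture difference for the clock genes Per1 (2.292), Per2 (2.104), Per3 (1.966), Tef (1.544) and Cry2 (1.301). It did so for the chromatin and nuclear RNA genes Zbtb20 (1.870), Malat1 (1.863), Kmt2a (1.504), Jmjd1c (1.414) and Kdm6b (1.247). The same held for B930095G15Rik (2.404), Anpep (2.393), Ltbp2 (1.851), Eno2 (1.524), Gata3 (1.316), Adamts1 (1.226), Fosl2 (1.215) and Vegfa (1.018). It lay below the culture difference for Dmkn (-5.326), Serpinb5 (-4.577), Spdye4b (-4.439), Krt14 (-2.404) and Serpinf1 (-1.492). In this order, these genes had 122, 199, 108, 188 and 239 reads over all cultures, so their values rest on low culture counts. B930095G15Rik was also low there, with 479 reads.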

How the results depend on the processing

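Of the 21 alternatives, each kept the direction of all called genes it tested, which their selection in the same libraries largely fixed. The number called moved. Leaving out 1 library at a time gave 73 to 768 called genes, with 34 to 516 higher and 38 to 252 lower. Without MN12 and MN15 there were 3525 (1692 higher, 1833 lower), and without MN11, MN13 and MN14 there were 16 (6 higher, 10 lower). The cause of these shifts was not tested. DESeq2 called 1127 (743 higher, 384 lower), and the length slope as a covariate gave 627 (399 higher, 228 lower). Other scalings, limma-voom, other filters and the length trend removed gave 288 to 488. Called genes that also differed between tumors and cultures numbered 55 to 134 with 1 library left out and 94 to 147 by other tools, scalings and filters. No paired analysis was possible because MN11 to MN15 and MP6 to MP10 share no replicate numbers. Genes with few reads, such as Il24 with 23 reads in the Y-negative tumors, are limited by depth.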
